A study of Mus musculus with 8 samples.

Results

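Mammary epithelial cells enriched for mammary stem cells (MaSC) were set against cells enriched for luminal progenitors (LP), both grown with interferon-α (IFNα). The comparison used 4 of the 8 arrays of the series, chosen by their labelled population and treatment: 2 of MaSC with IFNα and 2 of LP with IFNα. The remaining 4 arrays, 2 of MaSC controls and 2 of LP controls, received no IFNα; they entered the shared estimate of spread and are given as values beside the treated ones. All cells came from virgin wild-type mice of the FVB/N-J strain. Cell suspensions of dissociated glands were plated as mammospheres, floating three-dimensional clusters, and the treated cultures received 1000 U/ml of IFNα. Harvest followed after 8 days, and flow cytometry separated the populations by surface markers. The labels do not state whether sorting came before or after the culture, nor whether the 2 arrays of a group came from separate animals, and p-values thus reflect array-to-array spread alone, which may be technical. The titles give both populations the same surface phenotype, with high CD29 for the LP fraction as well, and the populations were taken from the population label. Each array held Cy5-labelled sample RNA and a Cy3-labelled reference RNA mixed from 11 mouse cell lines. Every value below is a log2 ratio of sample to reference, so 0 means equal signal in both, and every difference is MaSC minus LP on the log2 scale. Ratios of different genes were not compared with each other, because they depend on the reference as well.

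The mammary duct has an outer basal layer of contractile cells that express keratins 5 and 14 and an inner luminal layer that expresses keratins 8 and 18. Stem cell activity in transplants lies in the basal fraction, and luminal progenitors, marked by the receptor Kit and the transcription factor Elf5, give rise to luminal and milk-producing cells. Stratified epithelia such as the epidermis also rest on a keratin 5 and keratin 14 layer, and their upper cells build a cornified envelope from cross-linked proteins, desmosomes and lipids. Type I interferons such as IFNα act through the receptor chains Ifnar1 and Ifnar2 and switch on antiviral genes in most cell types.

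With IFNα, 99 of 21794 genes were higher in MaSC (0.454% of all genes tested) and 11 were lower (0.0505%; limma, Benjamini-Hochberg adjusted p under 0.05 over all genes). The largest differences included many genes of the cornified epidermis, and the epidermal differentiation complex held 16 of the 99 higher genes. Basal (2) and endothelial (4) genes were also among the 99, with smaller differences. The median difference of all genes was -0.03. At an unadjusted p under 0.05 there were 1682 higher and 2001 lower genes, so at that looser threshold lower genes were the more numerous. A rule without a test again gave more genes higher in MaSC. Every MaSC array lay at least 1 above every LP array for 786 genes (3.61%) and at least 1 below for 295 genes (1.35%), a separation called a clear gap below. Arrays of the groups merely did not overlap, with MaSC higher, for 21.7% of all genes and, with MaSC lower, for 28.6%. The 99 and 11 calls used the spread of all 8 arrays: when only the 4 arrays with IFNα were fitted, or when any 1 of them was left out, no gene passed (0 by limma, with 1912 higher and 1920 lower at an unadjusted p under 0.05 in the fit of 4 arrays and a lowest adjusted p of 0.0577). All 99 and 11 genes kept their direction in each of these fits.

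**Figure D1:**
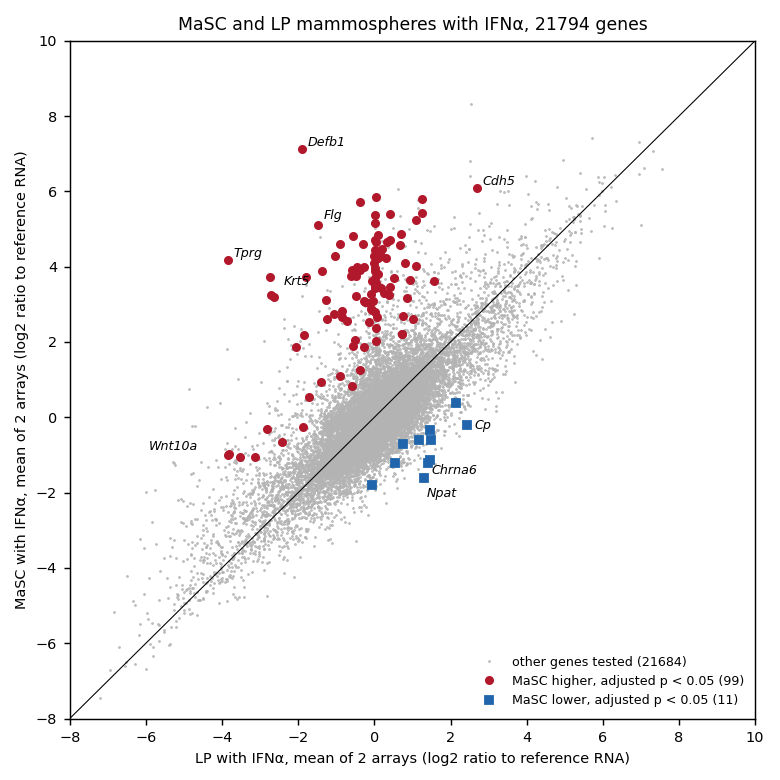
Mean log2 ratio of each gene on the 2 MaSC arrays with IFNα (vertical axis) against the mean on the 2 LP arrays with IFNα (horizontal axis), both relative to reference RNA, with the line of equal values. The 99 genes higher in MaSC lie far above the line, many at an LP ratio near 0, and the 11 lower genes lie closer below it.

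The 4 arrays were alike in breadth and fell by population. Standard deviations over genes ran from 1.30 to 1.37, and correlations across genes were 0.87 between the MaSC arrays, 0.88 between the LP arrays and 0.73 to 0.78 between populations. The values are ratios only, so how far a gene's signal exceeded background is unknown. On each array 13.1% to 18.3% of genes lay within 0.05 of a single commonest ratio near 0. Both LP arrays lay there for 13 of the 99 higher genes, against 1686 of all 21794 genes, so the LP level of those 13 genes, and thereby the size of their difference, is uncertain. Among the genes described below these were Lrat, Abca12, Spink12, Il1f8, Rptn and Pglyrp4. At least 1 LP array lay there for 38 of the 99, against 5250 of all 21794 genes, so the limit reaches beyond those 13. Averaging over probes can also hide it: a probe of Ivl and a probe of Il1f5 lay there on both LP arrays. LP control replicate 1 had a narrower spread than all other arrays (standard deviation over genes 0.72) and touches this comparison through the shared spread. The control differences given below use it directly. In sorted cultures analysed in bulk, fewer cells of a type and less RNA per cell cannot be told apart.

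The basal markers Krt5, Krt14, Trp63 and Acta2 separated the populations as labelled, and the luminal progenitor markers Kit and Elf5 did not. The basal integrin genes Itga6 and Itgb1, given further below, were lower in MaSC. Krt5, the basal type II keratin, stood at 2.89 and 3.55 on the MaSC arrays, against -0.74 and -0.23 on the LP arrays, a difference of 3.70 ± 0.41 (standard error; adjusted p = 0.0341). Its partner Krt14 stood at 3.69 and 3.74 in MaSC, against 2.52 and 2.52 in LP. The Krt14 difference of 1.19 ± 0.21 did not pass (adjusted p = 0.085), although the groups were clearly separate, and LP arrays were also well above the reference for this gene. Trp63, the transcription factor of stratified and basal epithelia, stood at 1.60 and 2.25 in MaSC and at -0.14 and -0.33 in LP (adjusted p = 0.106), with differences of 0.04 to 6.49 among its 4 probes. Acta2, the smooth muscle actin of myoepithelium, stood at -1.68 and -0.57 in MaSC and at -3.52 and -3.80 in LP (adjusted p = 0.085). Of these 4 basal markers only Krt5 passed, and the arrays of the groups did not overlap for any of them.

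Kit, the stem cell factor receptor, stood at 6.88 and 7.28 in MaSC and at 6.82 and 7.80 in LP. Elf5, which directs luminal progenitors towards the milk-producing fate, stood at 5.58 and 5.72 in MaSC and at 5.29 and 6.25 in LP. Both genes were thus far above the reference on all 4 arrays, with overlapping groups and differences of -0.23 ± 1.24 for Kit and -0.12 ± 0.66 for Elf5. LP controls, at 3.66 and 7.72 for Kit and at 3.58 and 5.56 for Elf5, enter these errors through the shared spread. The general luminal genes Krt8, Gata3 and Epcam were lower in MaSC without passing. Krt8 stood at 2.01 and 1.25 in MaSC and at 2.41 and 2.52 in LP, and Gata3, the luminal lineage factor, at 1.92 and 1.58 in MaSC and at 2.79 and 2.38 in LP. Epcam stood at 3.37 and 3.35 in MaSC and at 3.74 and 3.74 in LP, so both populations carried this epithelial surface marker. Itgb1, which encodes CD29, the sorting antigen, was not higher in MaSC: it stood at 0.53 and -0.38 there and at 0.77 and 0.86 in LP (-0.75 ± 0.37, adjusted p = 0.378). Cd24a, the other antigen, stood at 2.38 and 2.03 in MaSC and at 2.81 and 2.93 in LP (-0.67 ± 0.21, adjusted p = 0.211).

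**Figure D2:**
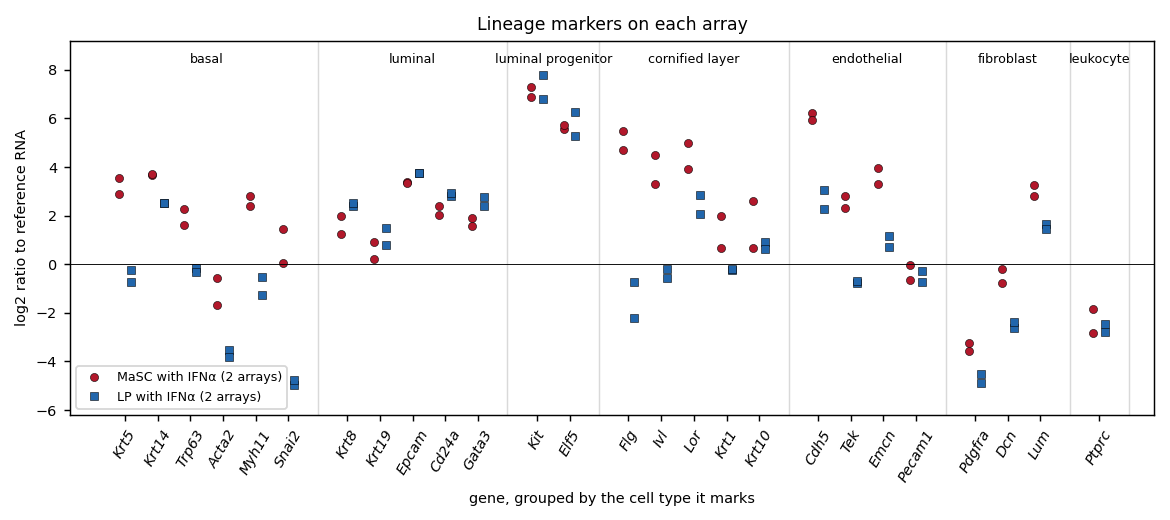
Log2 ratios to reference RNA of lineage markers on each MaSC array (red circles) and each LP array (blue squares) with IFNα, grouped by the cell type the gene marks. Krt5, Flg and Cdh5 separate the populations widely, while Kit and Elf5 lie between 5.29 and 7.80 in both.

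The widest group of genes higher in MaSC was the epidermal differentiation complex, a run of neighbouring genes on mouse chromosome 3 that encodes filaggrin, involucrin, small proline-rich proteins, late cornified envelope proteins and S100 proteins. Of 49 members tested, 16 passed, all higher in MaSC, and 34 had the clear gap upward (69.4%, against 3.61% of all genes). Their median difference was 2.11, against -0.03 over all genes. Flg, filaggrin, which bundles keratin and is broken down to moisturising amino acids, stood at 4.72 and 5.51 in MaSC, against -2.21 and -0.74 in LP (6.59 ± 0.68, adjusted p = 0.0292). Sprr1b, a small proline-rich envelope protein, stood at 5.53 and 5.92 in MaSC, against -1.14 and 0.39 in LP (6.10 ± 0.49, adjusted p = 0.0225). Its neighbour Sprr1a stood at 3.05 and 3.44 in MaSC, against -2.78 and -2.66 in LP (5.96 ± 0.51, adjusted p = 0.0225). Every MaSC value of these 3 genes lay above 3 and no LP value above 0.39.

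Kprp, a proline-rich keratinocyte protein, stood at 4.71 and 4.94 in MaSC, against -0.92 and -0.23 in LP (5.39 ± 0.54, adjusted p = 0.0269). Tchhl1, a trichohyalin-like S100 fusion protein, stood at 3.73 and 2.48 in MaSC, against -0.85 and -1.68 in LP (4.37 ± 0.48, adjusted p = 0.0341). Ivl, involucrin, an early scaffold of the envelope, stood at 3.31 and 4.49 in MaSC, against -0.55 and -0.19 in LP (4.27 ± 0.42, adjusted p = 0.0266). The other 10 passing members were Lce3a, Lce3f, Rptn, S100a7a, Lce3b, Lce3e, Lce1b, Pglyrp4, Lce1f and Sprr2a2, with differences between 2.00 and 4.11. Late cornified envelope and small proline-rich genes are near-identical families, so signal may be shared among their probes. Lor, loricrin, the main protein of the mature envelope, was high in both populations: it stood at 3.94 and 4.98 in MaSC and at 2.09 and 2.87 in LP, and its difference of 1.98 ± 0.61 did not pass (adjusted p = 0.206). The group held no member with a clear gap downward. Between the outermost members of the complex by RefSeq gene order lay 9 further tested genes outside the list, none of which passed and 3 of which had the clear gap upward. The 16 calls of the list were 5 without either MaSC control array and 0 in the fit of 4 arrays.

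Cornified envelope genes are textbook targets of AP-1 factors. Their site was searched here as TGANTCA, with any base at N, a looser pattern than the usual TGA(C/G)TCA. The match in Sprr1b, TGAATCA, fits only the looser pattern. The 250 bases before the start of 4 passing genes are shown because each holds such a match. They are RefSeq sequences of the GRCm38.p6 build, written on the gene's strand with AP-1 matches in capitals. Sprr1a lies at chr3:92485882-92486131 (minus strand), Sprr1b at chr3:92438780-92439029 (minus), Ivl at chr3:92573736-92573985 (minus) and Krtdap at chr7:30787655-30787904 (plus).
Sprr1a: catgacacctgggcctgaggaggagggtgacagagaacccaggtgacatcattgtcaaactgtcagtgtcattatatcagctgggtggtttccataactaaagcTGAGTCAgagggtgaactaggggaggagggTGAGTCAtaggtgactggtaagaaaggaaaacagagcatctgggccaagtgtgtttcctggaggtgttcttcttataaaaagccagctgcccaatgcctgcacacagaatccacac
Sprr1b: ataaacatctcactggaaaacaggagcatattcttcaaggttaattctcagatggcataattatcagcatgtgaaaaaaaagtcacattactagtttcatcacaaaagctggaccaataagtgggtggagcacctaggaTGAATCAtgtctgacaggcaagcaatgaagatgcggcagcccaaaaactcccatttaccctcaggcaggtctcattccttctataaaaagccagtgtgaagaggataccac
Ivl: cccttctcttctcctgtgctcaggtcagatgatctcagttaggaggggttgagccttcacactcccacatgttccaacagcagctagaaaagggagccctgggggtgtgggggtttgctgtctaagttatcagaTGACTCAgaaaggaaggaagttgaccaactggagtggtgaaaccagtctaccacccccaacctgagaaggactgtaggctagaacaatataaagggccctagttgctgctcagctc
Krtdap: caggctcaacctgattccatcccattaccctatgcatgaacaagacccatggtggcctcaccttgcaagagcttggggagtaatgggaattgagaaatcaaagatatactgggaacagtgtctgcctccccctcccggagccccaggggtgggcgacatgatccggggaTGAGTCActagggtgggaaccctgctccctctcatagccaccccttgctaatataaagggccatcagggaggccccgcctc
Counted back from the gene start, the matches begin at -146 and -116 in Sprr1a, -111 in Sprr1b, -116 in Ivl and -81 in Krtdap. A TATAAA box begins at -43, -30, -29 and -30 in the same order. TGANTCA, read on both strands of these 250 bases, was present in 13 of 72 higher genes with a RefSeq promoter (18.1%), in 16 of 43 members of the epidermal differentiation complex (37.2%) and in 3 of 6 lower genes, against 7.33% of the 17127 genes with a promoter. TATAAA was present in 23.6% of the higher genes and 48.8% of the complex members, against 13% of all. Members of the complex are related by duplication, so their matches are not independent, and a match in these letters does not show that a factor binds there.

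Keratinocyte differentiation genes outside the complex moved the same way. Of 29 tested, 8 passed, all higher in MaSC (median of the list 1.36). The clear gap was upward in 14 (48.3%, against 3.61% of all genes). Cdsn, corneodesmosin, an adhesive protein of cornified cells, stood at 3.17 and 4.27 in MaSC, against -3.23 and -2.24 in LP (6.45 ± 0.67, adjusted p = 0.0292). Krtdap, a secreted peptide of differentiating keratinocytes, stood at 4.02 and 4.56 in MaSC, against -0.54 and -1.53 in LP (5.32 ± 0.45, adjusted p = 0.0225). Il1f5, the antagonist of the interleukin-36 receptor, stood at 4.55 and 4.74 in MaSC, against 0.53 and 0.15 in LP (4.31 ± 0.21, adjusted p = 0.00868). Ly6g6c, Ly6d, Hopx, Cnfn and Dmkn were the other calls, with differences from 2.93 to 4.17. The largest difference of the list did not pass: Scel, sciellin, a precursor of the envelope, stood at 3.58 and 4.65 in MaSC and at -3.82 and -3.93 in LP (7.99 ± 1.25, adjusted p = 0.067). Its control values, 2.80 and 4.65 in MaSC and -0.25 and -3.94 in LP, enter that error through LP control replicate 1.

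The suprabasal keratins did not follow as clearly. Krt1, the keratin of the first suprabasal layer, stood at 0.68 and 1.99 in MaSC and at -0.25 and -0.19 in LP (adjusted p = 0.336). Its partner Krt10 stood at 0.67 and 2.61 in MaSC and at 0.92 and 0.64 in LP, and these groups overlapped. None of 15 tested keratins of stratified and activated epithelia passed, with a median of 0.86. Clear gaps were upward in 3, Krt78, Krt6b and Krt13 (20%, against 3.61% of all genes). Krt78 stood at 3.62 and 3.74 in MaSC and at 1.08 and -0.20 in LP (adjusted p = 0.067).

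Adhesion, protease and lipid genes of the barrier added to this set. Of 13 desmosome genes 2 passed, both of the desmoglein 1 family that holds upper epidermal cells together. Dsg1a stood at 4.24 and 4.69 in MaSC, against 0.23 and 0.17 in LP (4.27 ± 0.23, adjusted p = 0.00868), and Dsg1b at 2.77 and 3.39 in MaSC, against -0.39 and -0.14 in LP (3.35 ± 0.29, adjusted p = 0.0225). Dsc3, Dsc1, Dsp and Dsg1c had the clear gap upward without passing, and the list median was 1.33. With the calls, 6 members had that gap (46.2%, against 3.61% of all genes).

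Of 24 kallikreins and protease inhibitors 3 passed. Klk13, a secreted serine protease, stood at 4.99 and 5.34 in MaSC, against 0.27 and -0.21 in LP (5.13 ± 0.28, adjusted p = 0.00868). Klk5, which starts the protease cascade of skin shedding, stood at 4.32 and 4.90 in MaSC, against -0.35 and -0.22 in LP (4.90 ± 0.33, adjusted p = 0.0141). Spink12, a Kazal-type inhibitor, stood at 4.28 and 4.60 in MaSC, against 0.22 and -0.17 in LP (4.42 ± 0.43, adjusted p = 0.0259). The LP values of these genes lay between -0.35 and 0.27, and both of Spink12 lay within 0.05 of the commonest ratio of their array.

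Of 34 barrier lipid and cross-linking genes 2 passed. Abca12, which loads lipid into lamellar granules, stood at 5.12 and 5.60 in MaSC, against 0.20 and -0.16 in LP (5.34 ± 0.46, adjusted p = 0.0225). Cyp4f39, the mouse enzyme that hydroxylates very long fatty acids for skin ceramides, stood at 2.01 and 3.47 in MaSC, against -1.17 and -0.96 in LP (3.80 ± 0.49, adjusted p = 0.0491). Padi3, a deiminase of hair and epidermal proteins that is counted with the hair follicle genes here, stood at 0.72 and 1.18 in MaSC and at -2.85 and -3.09 in LP (adjusted p = 0.085).

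**Figure D3:**
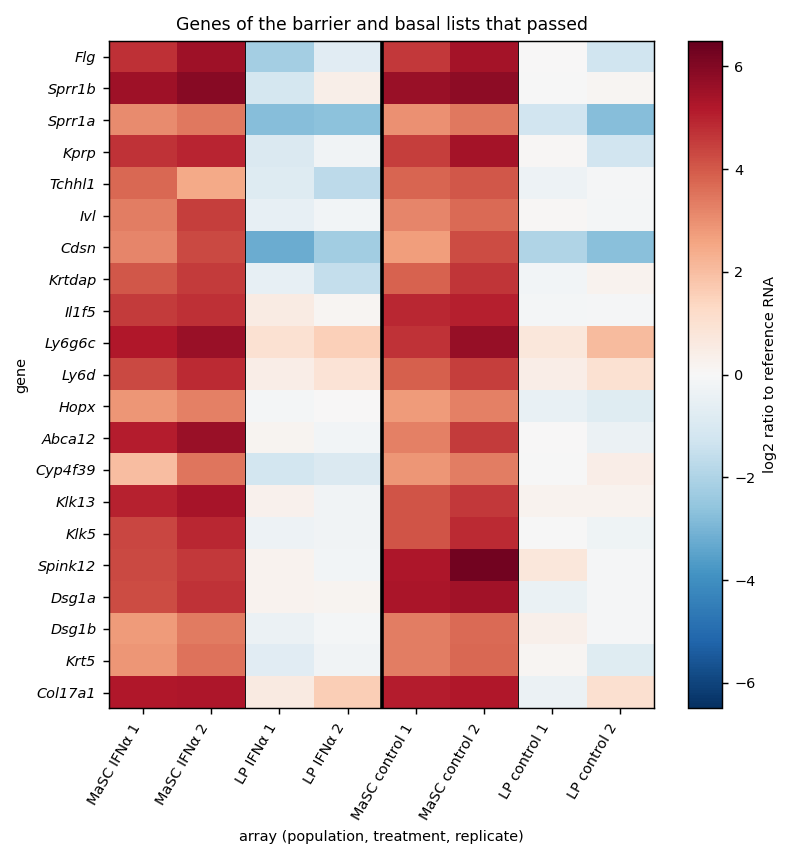
Log2 ratio to reference RNA (colour) of 21 passing genes of the barrier and basal lists, one row per gene and one column per array, with IFNα arrays left of control arrays and MaSC left of LP. Every MaSC array is above the reference and above every LP array of the same treatment for these genes. LP values reach 1.61 for Col17a1 with IFNα and 2.05 for Ly6g6c in controls.

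Basal identity genes as a list stood higher in MaSC, with few calls. Of 29 tested, 2 passed, and the median was 0.90. The clear gap was upward in 13 (44.8%, against 3.61% of all genes) and downward in 1, Itga3 (3.45%, against 1.35%). In 8 members the difference was negative. In 5 of them, Itga6 and Itgb1 included, every MaSC array lay below every LP array (17.2%, against 28.6% of all genes). Besides Krt5 the call was Col17a1, the collagen of hemidesmosomes, at 5.23 and 5.27 in MaSC, against 0.56 and 1.61 in LP (4.16 ± 0.54, adjusted p = 0.0498). Snai2, a repressor of luminal genes in the basal layer, stood at 0.06 and 1.44 in MaSC and at -4.98 and -4.78 in LP and missed the threshold (5.63 ± 0.76, adjusted p = 0.0552). Itga6, the α6 integrin, stood at 0.51 and 0.24 in MaSC and at 0.62 and 0.74 in LP. Among 20 contractile genes of the myoepithelium none passed (0 by limma), and the median was 0.61. Clear gaps were upward in 5, Cnn1, Myh11, Myl9, Acta2 and Actg2 (25%, against 3.61% of all genes), and downward in none. Myh11, smooth muscle myosin, stood at 2.41 and 2.80 in MaSC and at -1.26 and -0.53 in LP (3.50 ± 0.49, adjusted p = 0.0579).

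The largest differences that passed also held genes of epithelial defence and metabolism. Defb1, a β-defensin that kills bacteria at epithelial surfaces, stood at 6.0 and 8.23 in MaSC, against -0.95 and -2.87 in LP (9.03 ± 1.08, adjusted p = 0.039). Tprg, named for its control by Trp63, stood at 3.57 and 4.76 in MaSC, against -4.25 and -3.42 in LP (8.00 ± 0.82, adjusted p = 0.0292). Cyp1a1, the oxidase best known as a target of the aryl hydrocarbon receptor, stood at 4.44 and 4.75 in MaSC, against -1.65 and -0.16 in LP (5.51 ± 0.52, adjusted p = 0.024). Differences of this size occurred in 1 direction: the most negative of any gene was -3.05, in Cdh10, a cadherin gene that did not pass (adjusted p = 0.232).

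Lrat, which stores retinol as esters, stood at 5.64 and 6.04 in MaSC, against 0.23 and -0.13 in LP (5.79 ± 0.62, adjusted p = 0.0338). Lgals7, a galectin of stratified epithelia, stood at 3.63 and 4.17 in MaSC, against -0.87 and -1.88 in LP (5.27 ± 0.49, adjusted p = 0.0239). Gpx2, a glutathione peroxidase of epithelia, stood at 4.44 and 4.89 in MaSC, against -0.10 and 0.20 in LP (4.61 ± 0.37, adjusted p = 0.0225). Endou, a nuclease gene, had a difference of 5.84 ± 0.70 (adjusted p = 0.0392). Lrat was the only call among 23 retinoid genes, Gpx2 among 29 glutathione and oxidant-response genes, and Defb1 the only higher call among 31 antimicrobial genes.

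Each signalling list gave 1 or 2 calls. Bmp7, a ligand of the bone morphogenetic protein family, stood at 3.28 and 4.18 in MaSC, against -1.91 and -1.66 in LP (5.51 ± 0.63, adjusted p = 0.0351). Fst, follistatin, which traps activin, stood at 1.75 and 2.01 in MaSC, against -0.42 and -0.70 in LP (2.44 ± 0.27, adjusted p = 0.0346). They were the 2 calls among 30 TGF-β and BMP genes, whose median was -0.04.

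Among 23 Notch genes 2 passed. Jag1, a Notch ligand, stood at 3.28 and 3.07 in MaSC, against 1.07 and 0.65 in LP (2.32 ± 0.22, adjusted p = 0.0259). Mfng, an enzyme that adds sugar to Notch receptors, stood at -0.07 and -0.46 in MaSC, against -1.87 and -1.89 in LP (1.61 ± 0.20, adjusted p = 0.0479). Of 37 Wnt pathway genes Wnt10a, a ligand, was the only call, at -1.23 and -0.69 in MaSC, against -3.73 and -3.91 in LP (2.86 ± 0.34, adjusted p = 0.0392). The Notch list had 4 clear gaps upward (17.4%, against 3.61% of all genes) and none downward, with a median of 0.20. Besides the 2 calls they were Nrarp and Heyl, both known Notch targets, and Nrarp stood at 6.14 and 7.45 in MaSC and at 2.83 and 2.17 in LP (4.30 ± 1.15, adjusted p = 0.168). The Wnt list as a whole had a median of -0.28, with 3 clear gaps each way (8.11% each). They were Wnt10a, Nkd1 and Wnt4 upward, against 3.61% of all genes, and Fzd5, Wnt7b and Znrf3 downward, against 1.35%.

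Dusp6, a phosphatase that switches off ERK, stood at 0.76 and 0.90 in MaSC, against -0.55 and -0.63 in LP (1.42 ± 0.17, adjusted p = 0.0423), the only call among 21 EGF family genes. Igfbp3, which binds insulin-like growth factors, stood at 2.78 and 2.45 in MaSC, against 1.09 and 0.94 in LP (1.60 ± 0.19, adjusted p = 0.0411). Mmp3, stromelysin 1, stood at 2.69 and 2.67 in MaSC, against 1.00 and 0.53 in LP (1.92 ± 0.21, adjusted p = 0.0341). Each was the only call of its list, of 27 growth factor genes and of 25 matrix proteases and inhibitors. Il1f8, an interleukin-36 ligand, was the only call among 38 inflammatory cytokines and chemokines, at 3.31 and 4.07 in MaSC, against 0.20 and -0.15 in LP (3.67 ± 0.45, adjusted p = 0.0417). In that list 8 genes had the clear gap upward (21.1%, against 3.61% of all genes), among them Il18, Il33, Il6 and Ccl2. The gap was downward in 3, Il23a, Nos2 and Ptgs2 (7.89%, against 1.35%). Arrays merely did not overlap, with MaSC lower, for 28.9% of the list, near the 28.6% of all genes.

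Myb and Tbx3, transcription factor genes counted here with the hormone-sensing luminal genes, were higher in MaSC. Myb stood at -0.61 and 0.00 in MaSC, against -2.74 and -2.89 in LP (2.51 ± 0.29, adjusted p = 0.0352), and Tbx3 at 0.33 and 0.73 in MaSC, against -1.77 and -1.66 in LP (2.24 ± 0.27, adjusted p = 0.039). They were the 2 calls of 16 tested genes. Esr1, the oestrogen receptor that defines those cells, stood below the reference on all 4 arrays, at -0.91 and -0.77 in MaSC and at -0.71 and -0.24 in LP, and its 4 probes differed in direction. Trp73, a relative of Trp63, passed as the mean of 3 probes (1.50 ± 0.17, adjusted p = 0.0352), but single probes gave differences from -0.48 to 5.07.

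Endothelial genes were as widely higher in MaSC as the cornified genes. Of 26 endothelial and mural markers 4 passed, all higher in MaSC, and the median was 2.46. The clear gap was upward in 18 (69.2%, against 3.61% of all genes) and downward in none. Cdh5, the cadherin of endothelial junctions, stood at 6.24 and 5.92 in MaSC, against 2.29 and 3.08 in LP (3.39 ± 0.39, adjusted p = 0.0352). Tek, the angiopoietin receptor, stood at 2.79 and 2.32 in MaSC, against -0.77 and -0.69 in LP (3.29 ± 0.42, adjusted p = 0.0491). Emcn, a sialomucin of capillaries and veins, stood at 3.96 and 3.30 in MaSC, against 1.15 and 0.71 in LP (2.70 ± 0.30, adjusted p = 0.0346).

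Egfl7, a secreted endothelial protein, stood at 3.04 and 2.18 in MaSC, against -1.39 and -1.10 in LP (3.86 ± 0.41, adjusted p = 0.0326). Pecam1, another defining endothelial gene, did not follow: it stood at -0.01 and -0.66 in MaSC and at -0.29 and -0.74 in LP, with overlapping groups. The list mean was 2.28 and 1.94 on the MaSC arrays, against 0.16 and -0.01 on the LP arrays. Angpt2, a ligand of Tek that is not in the list and was picked after its value was seen, also passed, at 3.05 and 2.30 in MaSC, against -0.85 and -0.84 in LP. The list had 4 calls with all arrays, 0 without either MaSC control array and 8 without either LP control array.

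Fibroblast and fat cell genes leaned the same way, and leukocyte genes did not. None of 19 fibroblast markers passed (0 by limma), but 8 had the clear gap upward (42.1%, against 3.61% of all genes) and the median was 1.46. Their list mean was -0.26 and -0.91 in MaSC, against -1.83 and -1.99 in LP. Pdgfra, the receptor that defines fibroblasts, was far below the reference everywhere, at -3.26 and -3.55 in MaSC and at -4.53 and -4.89 in LP (adjusted p = 0.204). Dcn, decorin, stood at -0.20 and -0.76 in MaSC and at -2.64 and -2.39 in LP (2.03 ± 0.27, adjusted p = 0.0549), and Vim, vimentin, at -2.28 and -3.48 in MaSC and at -4.51 and -5.38 in LP (adjusted p = 0.169). Of 23 interstitial matrix genes, 4 of them shared with the fibroblast list, none passed, and the median was 0.79. Clear gaps were upward in 5 (21.7%, against 3.61% of all genes) and downward in 1, Thbs1 (4.35%, against 1.35%).

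Fabp4, a fatty acid carrier of fat cells and capillaries, passed at 4.68 and 5.05 in MaSC, against 0.17 and 1.23 in LP (4.16 ± 0.37, adjusted p = 0.0225). It was the only call of 19 fat cell and red cell markers. Adipoq, adiponectin, a defining fat cell gene, stood at 2.97 and 2.81 in MaSC and at 0.19 and -0.22 in LP and did not pass. The 26 leukocyte markers had no call and no clear gap, and their list mean lay between -2.14 and -2.02 on all 4 arrays. Ptprc, which encodes the pan-leukocyte antigen CD45, stood at -2.83 and -1.83 in MaSC and at -2.46 and -2.78 in LP. The levels of these endothelial, fibroblast and fat cell genes moved with the populations in the same arrays as the cornified and basal genes, and their part in the other differences was not tested.

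**Figure D4:**
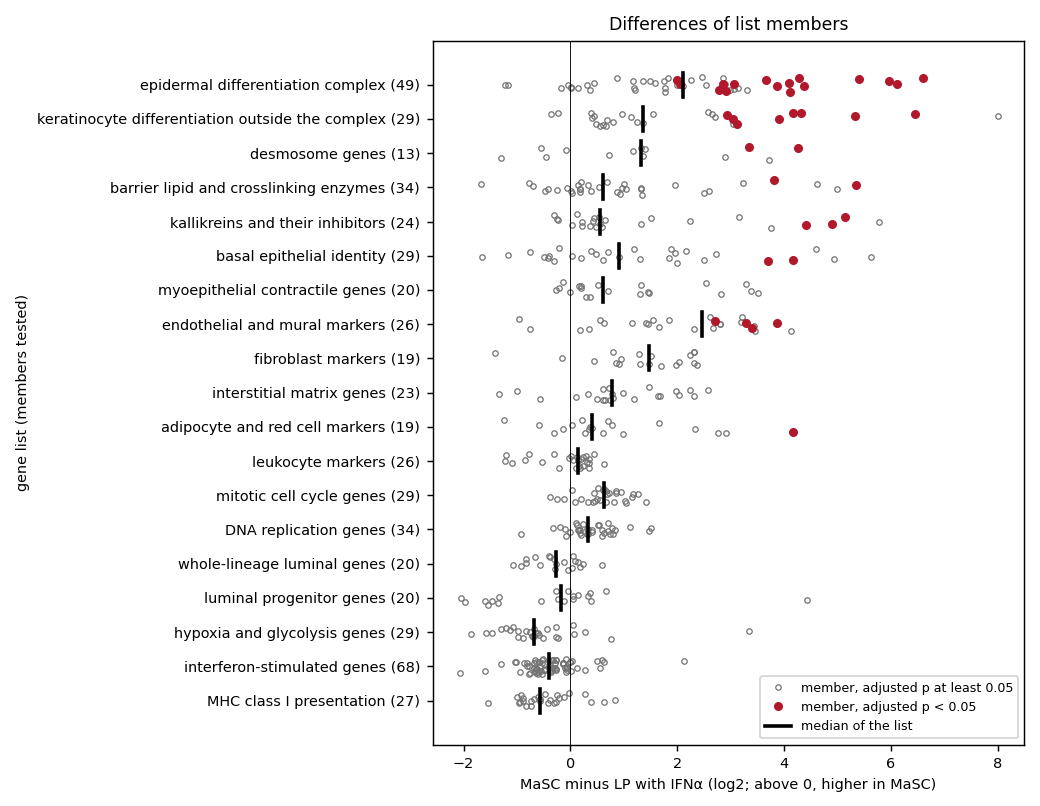
Difference between MaSC and LP with IFNα (log2, horizontal axis) for each tested member of 19 gene lists, with members that passed in red and the list median as a black bar. The lists of the epidermal differentiation complex and of endothelial markers lie far right of 0, with medians of 2.11 and 2.46, and the lists of interferon-stimulated and MHC class I genes lie left of it, with medians of -0.39 and -0.57.

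Of the 11 genes lower in MaSC 1, Cp, belonged to any of the 47 lists, where 53 of the 99 higher genes did. Over all genes tested, 1208 of 21794 belonged to a list. The lists were chosen with earlier results of these data known, which limits the comparison of these counts. Cp, ceruloplasmin, a secreted copper-carrying ferroxidase, stood at 0.07 and -0.50 in MaSC, against 2.25 and 2.62 in LP (-2.65 ± 0.32, adjusted p = 0.039). Chrna6, a nicotinic acetylcholine receptor subunit, stood at -1.67 and -1.53 in MaSC, against 1.57 and 1.04 in LP (-2.91 ± 0.34, adjusted p = 0.0387). Npat, a coactivator of histone genes, stood at -1.23 and -1.03 in MaSC, against 1.59 and 1.35 in LP (-2.60 ± 0.19, adjusted p = 0.0152).

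Apobr, a lipoprotein receptor, stood at -1.13 and -1.31 in MaSC, against 1.57 and 1.27 in LP (-2.64 ± 0.32, adjusted p = 0.0414). Pnpla7, a lysophospholipase, stood at -0.57 and -0.63 in MaSC, against 1.39 and 1.55 in LP (-2.08 ± 0.24, adjusted p = 0.0352). Tkt, transketolase of the pentose phosphate pathway, stood at -0.69 and -0.72 in MaSC, against 0.75 and 0.73 in LP (-1.45 ± 0.18, adjusted p = 0.0414).

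Plpp7, a relative of the lipid phosphatases, stood at -0.51 and -0.72 in MaSC, against 1.11 and 1.22 in LP (-1.78 ± 0.20, adjusted p = 0.0348). Enpp5, of the nucleotide pyrophosphatase family, stood at 0.42 and 0.36 in MaSC, against 2.20 and 2.07 in LP (-1.74 ± 0.17, adjusted p = 0.0259). Fxyd7, which modulates the sodium pump, stood at -1.87 and -1.73 in MaSC, against 0.12 and -0.23 in LP (-1.74 ± 0.19, adjusted p = 0.0346). The remaining pair, Gm4759 and 5830428M24Rik, are gene models with differences of -1.78 and -1.75. No array of one population crossed into the other for any of the 11.

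Several genes had wide downward gaps and missed the threshold. Il15, a cytokine of natural killer cells, stood at 0.90 and 2.22 in MaSC and at 4.36 and 4.46 in LP (-2.85 ± 0.79, adjusted p = 0.176). Padi2, a protein deiminase, stood at -0.96 and -0.73 in MaSC and at 1.36 and 1.83 in LP (adjusted p = 0.098), opposite in direction to Padi3. Alox5, which starts leukotriene synthesis, stood at -2.80 and -2.39 in MaSC and at -0.41 and 0.07 in LP (adjusted p = 0.101). Slc44a4, a choline transporter gene, stood at 0.53 and 0.07 in MaSC and at 3.82 and 2.57 in LP (adjusted p = 0.233).

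The luminal lists had medians near that of all genes, with a slight lean to LP. Among 20 general luminal genes none passed or had a clear gap, and the median was -0.28. Of them 13 were lower in MaSC (65%, against 52% of all genes). Among 20 luminal progenitor genes none passed (median -0.18). Cd55 and Lbp had the clear gap downward (10%, against 1.35% of all genes) and Ptn upward (5%, against 3.61%). Of this list 12 were lower in MaSC (60%). Cd55, which shields cells from complement, stood at 3.25 and 2.93 in MaSC and at 4.51 and 4.74 in LP (-1.54 ± 0.21, adjusted p = 0.0572). Ptn, pleiotrophin, stood at -0.76 and 1.51 in MaSC and at -3.63 and -4.45 in LP (adjusted p = 0.19).

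Among 21 milk protein and secretory genes none passed, and the median was 0.06. Csn1s2a, a casein gene, stood at 0.64 and 0.07 in MaSC and at 2.79 and 1.57 in LP (adjusted p = 0.182). Csn2, β-casein, stood at 0.02 and 0.07 in MaSC and at 3.48 and -0.21 in LP, so its negative difference rested on LP replicate 1. Csn1s1, another casein gene, was high in both, at 5.88 and 5.94 in MaSC and at 5.65 and 6.16 in LP.

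Interferon-stimulated genes were slightly but broadly lower in MaSC than in LP, and none passed. Of 68 tested 0 passed by limma, 59 had a negative difference and 45 had every MaSC array below every LP array (66.2%, against 28.6% of all genes). The median was -0.39. At the level of the list the means were 1.90 and 1.78 in MaSC, against 2.21 and 2.24 in LP. Isg15, a ubiquitin-like modifier, stood at 3.28 and 3.49 in MaSC and at 3.66 and 3.84 in LP (-0.36 ± 0.85). Ifit1, which binds foreign RNA, stood at 3.75 and 4.17 in MaSC and at 4.62 and 4.93 in LP (-0.82 ± 1.13), and Mx1, an antiviral GTPase, at 2.54 and 3.29 in MaSC and at 2.83 and 3.76 in LP (-0.38 ± 1.01). Control arrays enter these errors, and LP controls lay far apart, at -1.09 and -3.81 for Isg15 and at -1.09 and -4.83 for Ifit1.

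A clear gap downward was present in 3 of the 68 (4.41%, against 1.35% of all genes). Bst2, tetherin, stood at 2.27 and 2.12 in MaSC and at 3.71 and 3.89 in LP (-1.60 ± 0.28, adjusted p = 0.0859). Slfn8, a Schlafen family gene, stood at 1.82 and 1.73 in MaSC and at 3.12 and 3.04 in LP (-1.30 ± 0.26, adjusted p = 0.106). Epsti1 stood at 1.37 and 1.34 in MaSC and at 4.20 and 2.66 in LP. The clear gap upward was found in Ifi27l2a alone, at 3.09 and 4.09 in MaSC and at 1.59 and 1.33 in LP.

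Class I antigen presentation genes showed the same lean. Of 27 tested none passed (0 by limma), and the median was -0.57. In MaSC 23 were lower (85.2%, against 52% of all genes), 18 of them without overlap (66.7%, against 28.6%). Tap2, a subunit of the peptide transporter, stood at -0.07 and 0.04 in MaSC and at 0.78 and 0.95 in LP (-0.88 ± 0.18, adjusted p = 0.106). H2-Q10, a class I gene, stood at 1.36 and 1.42 in MaSC and at 1.95 and 2.30 in LP (adjusted p = 0.16). Class I genes are close copies of each other, so their probes may share signal.

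Among 27 genes of the interferon pathway itself none passed and the median was -0.40. Ifnar1, a receptor chain, stood at 0.19 and 0.27 in MaSC and at 1.04 and 1.22 in LP (-0.90 ± 0.20, adjusted p = 0.127). Ifnar2, the other chain, stood at -0.58 and -1.39 in MaSC and at 0.38 and -0.25 in LP (-1.05 ± 0.43, adjusted p = 0.302), and Irf7, a factor that amplifies the response, at 3.00 and 2.84 in MaSC and at 3.50 and 3.70 in LP (-0.68 ± 0.49). Lcor, a ligand-dependent corepressor, stood at -0.35 and -0.30 in MaSC and at 0.57 and 0.20 in LP (-0.71 ± 0.25, adjusted p = 0.246). These Lcor values are means of 2 probes with differences of -1.15 and -0.27, and the latter probe overlapped between populations. As gene values, none of these 4 overlapped between populations, and all had the lower values in MaSC. The same held for 14 members of the list in all (51.9%, against 28.6% of all genes), while 5 members had higher values without overlap. The only clear gap of the list was upward, in Irf8, a factor of immune cells, at -0.82 and -1.43 in MaSC and at -3.60 and -3.49 in LP (2.42 ± 0.93, adjusted p = 0.273). Cxcl9, a T-cell chemokine induced by interferons, ran the other way, at 2.61 and 2.37 in MaSC and at 0.09 and 0.89 in LP (2.00 ± 0.31, adjusted p = 0.067). Its list of 20 interferon-inducible GTPases and chemokines was split evenly, with 10 on either side.

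Cell cycle genes leaned to MaSC by small amounts. Of 29 mitotic genes none passed, 26 were higher in MaSC, 23 of them without overlap (79.3%, against 21.7% of all genes), and the median was 0.64. Mki67, the proliferation antigen, stood at -2.32 and -2.28 in MaSC and at -3.21 and -3.73 in LP (1.17 ± 0.31, adjusted p = 0.166). Cdc20, an activator of the anaphase-promoting complex, stood at -1.27 and -1.20 in MaSC and at -2.38 and -2.63 in LP (1.27 ± 0.21, adjusted p = 0.0708). All of these values lay below the reference, a mix of growing cell lines. Of 34 replication genes none passed and 28 were higher in MaSC, with a median of 0.33. Hypoxia and glycolysis genes leaned the other way, with a median of -0.69 over 29 genes and no call. In 16 of them every MaSC array lay below every LP array (55.2%, against 28.6% of all genes), and the control median was -0.56. The size depended on 1 array: the list mean was -1.40 and -1.38 in MaSC and -0.25 and -1.44 in LP, and without LP IFNα replicate 1 the median was -0.30. Car12, a carbonic anhydrase, was the only member with a clear gap, upward, at 2.26 and 2.73 in MaSC and at -0.50 and -1.19 in LP (3.35 ± 0.44, adjusted p = 0.0545). Among the lists with no call and no clear gap were those of ribosomal proteins (median -0.01), oxidative phosphorylation (-0.02) and cholesterol and fatty acid synthesis (0.13).

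The differences were largely present without IFNα as well. The control arrays are other arrays than the treated ones and share only the reference RNA, the fit's spread and any source of the cells with them. Of the 99 genes higher in MaSC with IFNα, 98 were higher in MaSC controls than in LP controls, all 98 without overlap, and 79 passed there, where 0.56% of all genes did so. Their median difference was 3.68 with IFNα and 3.62 in controls. Of the 11 lower genes 9 were also lower in MaSC controls and 4 passed there, where 0.0413% of all genes did, with medians of -1.78 with IFNα and -1.32 in controls. Among all genes 49.3% were positive in controls. The shares with the same direction were 92.1% of the 786 genes with a clear gap upward and 83.4% of the 295 with one downward. Across the 21794 genes, which are not independent replicates, the differences with and without IFNα had a Pearson correlation of 0.61 and a Spearman correlation of 0.47.

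Control values lay near those with IFNα for some genes, such as the cornified gene Sprr1b and the basal keratin Krt5. Others differed more: Dsg1a had a difference of 4.27 with IFNα and 5.63 in controls, and Lgals7 5.27 and 3.57. Sprr1b stood at 5.62 and 5.83 in MaSC controls, against -0.02 and 0.15 in LP controls, and Krt5 at 3.34 and 3.72 in MaSC controls, against 0.13 and -0.78 in LP controls. List medians differed in size, and some changed sign. The median of the epidermal differentiation complex was 2.11 with IFNα and 3.20 in controls. That of endothelial markers was 2.46 with IFNα and 1.85 in controls. The small negative medians of luminal lists with IFNα were positive in controls. They were -0.28 with IFNα and 0.15 in controls for general luminal genes, and -0.18 and 0.25 for luminal progenitor genes. The Wnt list also changed sign, from -0.28 with IFNα to 0.25 in controls. The interferon-stimulated genes had a median of -0.32 in controls, next to -0.39 with IFNα, and the mitotic genes 0.06, next to 0.64. These control medians include LP control replicate 1, the array of narrow spread. In LP controls Isg15 stood at -1.09 and -3.81 and Mx1 at -0.55 and -3.78, the first value from that array. In MaSC controls they stood at -2.84 and -3.79 and at -3.76 and -3.65. How far the control median of this list rests on that array was not tested.

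**Figure D5:**
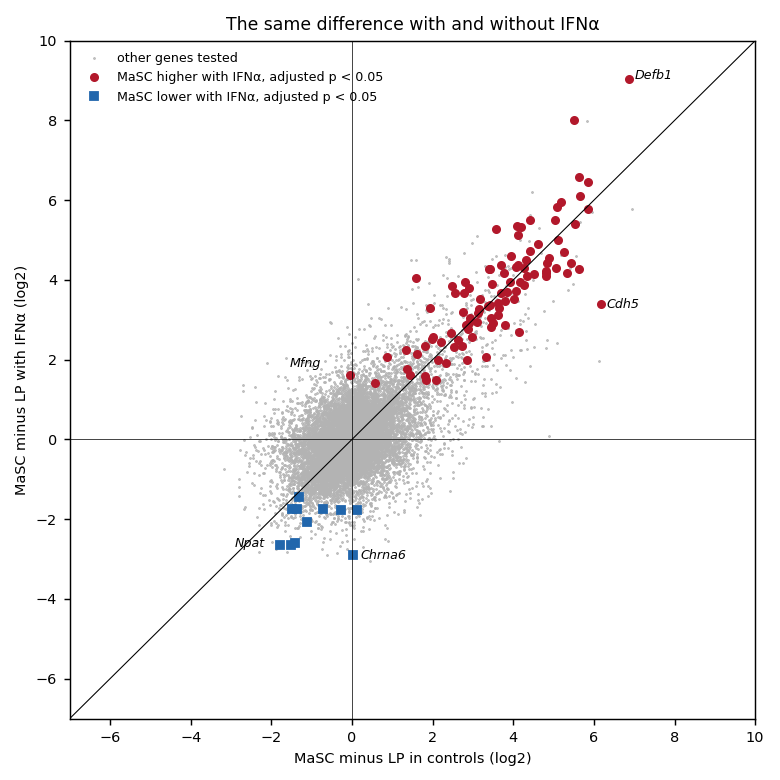
Difference between MaSC and LP with IFNα (vertical axis) against the same difference in controls (horizontal axis), both log2, for all 21794 genes, with the line of equal values. Of the 99 genes higher with IFNα, 98 also lie right of 0, while Mfng and Chrna6 lie close to 0 in controls.

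No gene passed the test of whether its MaSC minus LP difference changed with IFNα (0 of 21794, or 0%, by limma, with 931 genes, 4.27%, at an unadjusted p under 0.05 and a lowest adjusted p of 0.9997). The values of single genes nevertheless varied. Mfng, the exception among the 99, stood at -1.02 and -1.23 in MaSC controls and at -1.08 and -1.06 in LP controls, a control difference of -0.05. Chrna6 had a control difference of 0.02, with -0.24 and 0.60 in MaSC controls and -0.01 and 0.33 in LP controls, next to -2.91 with IFNα. Cdh5 went the other way in size: it stood at 5.56 and 4.97 in MaSC controls and at -0.57 and -1.25 in LP controls, a control difference of 6.17, next to 3.39 with IFNα. These genes were picked for this contrast after their values were seen, and the design with 2 arrays a group estimated such changes loosely.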

How the data were processed

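The authors deposited 1 table of log ratios per probe for 8 two-colour Agilent arrays, sample in Cy5 over reference in Cy3 per the labels. Agilent Feature Extraction 11.0 is named in the submitters' processing notes. The log base, normalization and centring are not given in the sources used here. The deposited values were read as log2 ratios, which the values do not contradict, and their direction was taken from the dyes. No channel intensities were analysed here, which leaves brightness relative to background unknown, and the number of arrays limits the precision.

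Of 55681 probes, 30626 carried 1 gene symbol in the platform annotation and 25055 none. Over all 55681 probes, named or not, 347 had an empty array and were left out. The 30398 named probes with a value on every array were averaged into 21794 genes. Of these genes 6730 had several probes, and 99 genes were lost with the empty probes. limma 3.58.1 in R 4.3.3 (lmFit and eBayes, two-sided) fitted 1 mean per group over all 8 arrays, leaving 4 residual degrees of freedom, with Benjamini-Hochberg adjustment over all genes and a threshold of 0.05. The procedure was tested on simulated data. Tables and figures used Python 3.11.15 with pandas 2.3.3. Standard errors use limma's moderated spread.

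The 47 gene lists (1285 genes, 1208 tested) and the rule for named genes were chosen with earlier results of these data known. The rule named up to 15 genes a side of largest difference among those passing, up to 6 passing members of each list or else 2 of lowest p, up to 15 a side of widest gap, and a fixed set of markers. Gene-model names were passed over by it. Members with a clear gap are also named where a list had few of them. Alternatives covered the arrays fitted, a replicate block, scaling, probe choice, limma options and filters.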

Additional observations from a re-analysis of the deposited data

How the results depend on the processing

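The counts of 99 higher and 11 lower genes depended on how the spread was estimated. Leaving out 1 array at a time gave 0 to 149 higher and 0 to 16 lower genes: 0 and 0 without any one of the 4 IFNα arrays, 50 and 3 without either MaSC control, and 149 and 16 without either LP control. In these fits a lone array is assumed to vary like the other groups. The 4 IFNα arrays alone gave 0 and 0, and again 0 and 0 with limma's trend and robust options, a setting chosen after seeing the data. Trend and robust options on all arrays gave 65 and 12, array weights 220 and 49, and leaving out genes of low mean ratio 118 and 19. Other scalings, another probe choice and leaving out genes at the commonest ratio (added after seeing the data) gave 76 to 136 higher and 9 to 14 lower genes. The test of a change of the difference with IFNα gave 0 genes in every setting in which it was run. The labels do not say that replicate numbers pair the arrays. Same-numbered arrays of the groups compared, MaSC and LP with IFNα, deviated together with a correlation of 0.07. Among other pairs of groups this ranged from -0.02 to 0.31, the highest between MaSC with IFNα and MaSC controls, so a shared source there was not settled. With the replicate block 52 genes were higher and 2 lower. Among 145 named genes the direction reversed in 8, none of which passed. Leaving out 1 IFNα array at a time, the difference ranged from -3.44 to 0.255 for Csn2 (highest without LP IFNα replicate 1), from -0.60 to 0.357 for Elf5, from -0.72 to 0.265 for Kit and from -0.85 to 0.0917 for Mx1 (the last 3 highest without LP IFNα replicate 2). It ranged from -0.15 to 0.50 for Pecam1, with -0.05 without LP IFNα replicate 2, from -0.11 to 1.83 for Krt10 and from -0.20 to 0.80 for Ptprc (the last 2 lowest without MaSC IFNα replicate 2). With the probe of highest mean Ikzf1 gave 0.10 (-0.86 with all probes). The cause was not tested. Signal over background is unknown, so the size of differences against values near the commonest ratio is limited.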
